A study of Mus musculus with 6 samples.

Results

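The phagocyte NADPH oxidase is described here through 6 genes, Cybb, Cyba, Ncf1, Ncf4, Rac2 and Nox4, matched by gene symbol to the deposited counts of renal CD11B+ cells. All 6 were found among 46603 genes and all 6 passed the filter on low counts, which left 15440 genes. The cells were isolated with CD11B antibody-coated magnetic beads from kidneys of 10- to 12-week-old male mice on day 3 of recovery from bilateral ischemia reperfusion–induced AKI (IRI-AKI), made by clamping both renal pedicles for 28 minutes, so every library comes from an injured kidney. The 3 PTEC DN RAR libraries have the genotype PEPCK CRE+; Rosa26-LSL-RARaT403X, in which Cre recombinase driven in proximal tubular epithelial cells (PTECs) switches on a truncated, dominant negative retinoic acid receptor (RAR). The 3 Cre- control libraries have the genotype PEPCK CRE-; Rosa26-LSL-RARaT403X and carry the same allele unrecombined. The transgene therefore acts in the tubule, and the oxidase genes were measured in a CD11B+ fraction that also held tubular RNA. The labels do not say whether a library holds 1 mouse or several, so the p values measure the spread between libraries.

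The phagocyte NADPH oxidase moves electrons from cytosolic NADPH across the membrane to oxygen and makes superoxide, which phagocytes use to kill microbes and which also acts as a signal and can injure tissue. Its catalytic core is a membrane heterodimer, cytochrome b558, of gp91phox (the product of Cybb, also called NOX2) and p22phox (Cyba). At rest the organizer p47phox (Ncf1) and p40phox (Ncf4) stay in the cytosol, and on stimulation they move to the membrane together with the GTPase Rac2. Nox4 encodes a relative of gp91phox that also pairs with p22phox but needs none of the cytosolic subunits, releases mainly hydrogen peroxide, and is known in the kidney as an oxidase of tubular epithelium. Patients who lack one of several phagocyte subunits have chronic granulomatous disease.

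Depth was 29318041 to 46517005 gene reads per library, so that 3 reads correspond to 0.0645 to 0.102 CPM (the reads of a gene relative to all gene reads of its library) before TMM scaling. CPM values of genes are scaled by TMM. Mitochondrial transcripts took 5.03% to 8.77% of gene reads in Cre- control and 10.4% to 12.1% in PTEC DN RAR libraries. Rara, the endogenous gene for RARα, lay between 35.3 and 45.4 CPM in Cre- control and between 30.7 and 37.6 CPM in PTEC DN RAR libraries, and these counts hold no separate entry for the transgene. Transcripts of the CD11B antigen gene Itgam and the CD45 gene Ptprc were abundant in all 6 libraries, as were resident macrophage markers, whose summed level ran from 30887 to 36057 CPM in Cre- control and from 37273 to 51029 CPM in PTEC DN RAR libraries. Most of that difference came from Cd74, the MHC class II invariant chain gene, with means of 9817 and 19599 CPM, and the macrophage marker Mrc1 fell from 1750 to 1068 CPM. Of the 15440 genes tested, 2636 were lower and 3640 higher in PTEC DN RAR libraries at an adjusted p under 0.05 in edgeR, whose quasi-likelihood test gives every adjusted p for single genes here. Scaling on 26 pan-leukocyte genes in place of TMM, of which 25 passed the filter, moved the table-wide median log2 fold change from 0.04 to 0.25 and these counts to 761 and 5041.

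Genomic positions are those of GENCODE M21 on GRCm38, the build named in the submitters' processing notes. Cybb (ENSMUSG00000015340) lies at chrX:9435252-9487771, Cyba (ENSMUSG00000006519) at chr8:122424776-122432930, Ncf1 (ENSMUSG00000015950) at chr5:134220053-134229625 and Nox4 (ENSMUSG00000030562) at chr7:87246096-87398710. Ncf4 (ENSMUSG00000071715) at chr15:78244801-78262580 and Rac2 (ENSMUSG00000033220) at chr15:78559167-78572783 sit on the same stretch of chromosome 15. Of the exon bases of Ncf1, 11.1% overlap exons of Gtf2ird2 on the other strand, and no exon base of the other 5 genes is shared with another annotated gene. Promoter windows of RefSeq on GRCm38.p6, from 250 bases before to 50 bases after the start site, were found for 4 of the 6 genes. The windows of Ncf1, which fell, Nox4, which rose, and Cybb, which did neither at the threshold, are printed 5′ to 3′ with the base at the start site as a capital.
Ncf1 (chr5:134229576-134229875, minus strand): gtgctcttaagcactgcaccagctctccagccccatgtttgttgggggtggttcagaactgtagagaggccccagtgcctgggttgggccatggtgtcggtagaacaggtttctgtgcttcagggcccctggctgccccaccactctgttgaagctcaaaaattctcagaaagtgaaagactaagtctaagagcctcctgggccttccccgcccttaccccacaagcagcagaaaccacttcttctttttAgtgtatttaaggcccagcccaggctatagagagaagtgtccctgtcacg
Nox4 (chr7:87246399-87246698, plus strand): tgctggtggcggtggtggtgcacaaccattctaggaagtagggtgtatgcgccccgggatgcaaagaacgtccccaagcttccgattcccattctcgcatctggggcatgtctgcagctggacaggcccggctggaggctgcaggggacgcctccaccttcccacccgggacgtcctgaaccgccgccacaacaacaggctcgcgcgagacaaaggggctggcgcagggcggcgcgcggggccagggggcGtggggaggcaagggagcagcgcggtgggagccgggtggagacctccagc
Cybb (chrX:9469275-9469574, minus strand): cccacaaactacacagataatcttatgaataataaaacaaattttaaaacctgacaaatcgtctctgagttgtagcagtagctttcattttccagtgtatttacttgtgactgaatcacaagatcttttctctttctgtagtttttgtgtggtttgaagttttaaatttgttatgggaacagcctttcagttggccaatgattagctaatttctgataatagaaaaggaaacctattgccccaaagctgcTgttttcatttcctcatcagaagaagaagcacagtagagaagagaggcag
These windows differ widely in base composition. The Nox4 window has 68.3% G and C with 24 CpG dinucleotides, that of Ncf1 54.0% with 3, and that of Cybb 35.3% with 1, while the window of Cyba has 60.7% with 9. The letters GAGGAAG, a core of sites bound by the myeloid factor PU.1, were searched on both strands and occur in 13.6% of 32851 promoter windows and in 0 of these 4. For both Cybb and Nox4, GENCODE M21 annotates exons upstream of the RefSeq start site used here.

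Of the 6 genes, 2 fell in PTEC DN RAR libraries (Ncf1 and Ncf4), 1 rose (Nox4) and 3 did not pass the test (Cybb, Cyba and Rac2). Among all genes tested 17.1% fell and 23.6% rose, 40.6% in either direction, so that 3 of 6 called is close to what the whole table shows. Without overlap between genotypes were 3 of the 6 genes, against 53.4% of all genes. The median log2 fold change of the 6 genes was -0.05, beside 0.04 for the whole table. Under pan-leukocyte scaling 1 of the 6 fell and 1 rose, beside 4.93% and 32.6% of all genes.

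**Figure D1:**
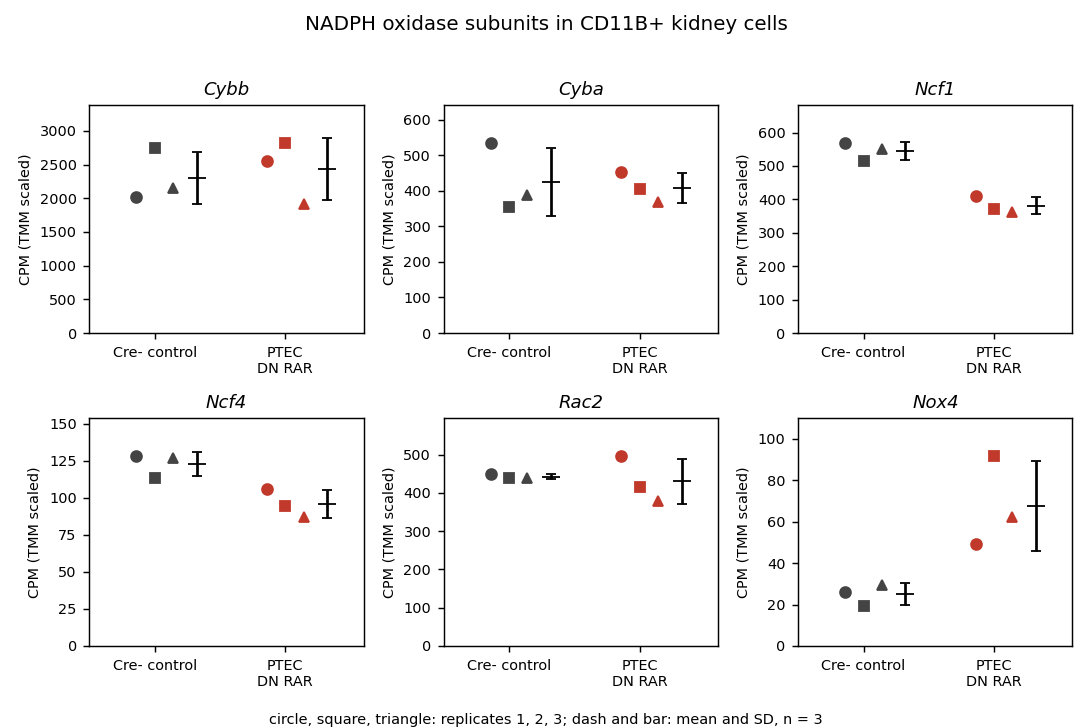
CPM (TMM scaled, linear axes from 0) of the 6 genes in each library, with Cre- control in grey and PTEC DN RAR in red, and with the mean and SD of 3 libraries beside the points. The groups are apart for Ncf1, Ncf4 and Nox4 and overlap for Cybb, Cyba and Rac2.

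Cybb, the catalytic subunit, was the most abundant of the 6 by reads. It measured 2011, 2742 and 2145 CPM in Cre- control libraries and 2550, 2813 and 1919 CPM in PTEC DN RAR libraries. The lowest and the highest of the 6 values are both in PTEC DN RAR libraries, and the groups overlap. The log2 fold change was 0.08 (standard error, SE, of 0.17, edgeR adjusted p = 0.746), with a 95% interval from -0.32 to 0.48, that is from 19.8% lower to 39.0% higher. The sign of this small value turned without Cre- control replicate 1 (-0.015), without Cre- control replicate 3 (-0.017) or without PTEC DN RAR replicate 2 (-0.044).

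Cyba encodes p22phox, which holds gp91phox stable in the membrane. Its values were 533, 354 and 388 CPM in Cre- control and 452, 406 and 369 CPM in PTEC DN RAR libraries. All 3 PTEC DN RAR values lie inside the range of the controls, whose highest value is that of replicate 1. The log2 fold change was -0.06 (SE 0.16, edgeR adjusted p = 0.793, 95% interval -0.41 to 0.30), and without Cre- control replicate 1 it was 0.13. That library also had relatively more reads on short genes. There the median log2 difference from the other controls was 0.20 over 1704 genes with up to 1.5 kb of exon and -0.07 over 6027 genes with more than 5 kb. Cyba, with 1.04 kb of exon, is a short gene and Cybb, with 5.81 kb, a long one. PTEC DN RAR replicate 1, with the highest Cyba of its group, showed the same pattern, at 0.13 over short and -0.03 over long genes relative to the rest of its group. The part of gene length in the values of Cyba was not tested.

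The log2 ratio of Cybb to Cyba compares the partners of the heterodimer within a library and does not depend on how libraries are scaled. It was 1.91, 2.95 and 2.47 in Cre- control and 2.50, 2.79 and 2.38 in PTEC DN RAR libraries, a difference of 0.11 in the mean (two-sided exact permutation test, p = 0.8, adjusted p = 0.857 over 15 ratios). The controls spanned the wider range, from their replicate 1 to their replicate 2. Per kilobase of exon the partners were the most abundant members and close to each other. In Cre- control libraries Cybb stood at 396 ± 67.0 and Cyba at 409 ± 91.6 CPM per kilobase (SD, n = 3 each), and in PTEC DN RAR libraries at 418 ± 79.2 and 393 ± 40.1 (SD, n = 3 each), differences within the spread of either.

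Ncf1, the organizer that carries the activated complex to the membrane, measured 568, 515 and 550 CPM in Cre- control libraries and 410, 370 and 363 CPM in PTEC DN RAR libraries. No PTEC DN RAR value reached the lowest control. The means were 544 ± 26.6 and 381 ± 25.1 CPM (SD, n = 3 each), so the level fell by 30.0% (log2 fold change -0.51, SE 0.09, edgeR adjusted p = 0.00328). Scaled on pan-leukocyte genes the log2 fold change was -0.30 with an adjusted p of 0.0272 by edgeR. Leaving out each library in turn gave values between -0.59 and -0.49. Of the 6 genes Ncf1 was the only one that fell under both scalings.

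Ncf4 encodes p40phox, which binds phosphoinositides on the phagosome. It measured 128, 114 and 126 CPM in Cre- control and 106, 94.3 and 86.8 CPM in PTEC DN RAR libraries, again without overlap. The log2 fold change was -0.36 (SE 0.10, edgeR adjusted p = 0.0187), a fall from 123 ± 7.93 to 95.6 ± 9.48 CPM (SD, n = 3 each). This call depends on the scaling, since relative to pan-leukocyte genes the log2 fold change was -0.15 (edgeR adjusted p = 0.238). It was also lost without PTEC DN RAR replicate 2, where the value was -0.35 with an adjusted p of 0.0548. The log2 ratio of Ncf1 to Ncf4 was 2.15, 2.18 and 2.12 in Cre- control and 1.96, 1.97 and 2.07 in PTEC DN RAR libraries. It was lower in all 3 PTEC DN RAR libraries, by 0.15 in the mean (two-sided exact permutation p = 0.1, adjusted p = 0.214 over 15 ratios), and 0.1 is the lowest value this design can reach.

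Rac2, the hematopoietic Rac GTPase of the complex, measured 449, 437 and 439 CPM in Cre- control and 495, 416 and 380 CPM in PTEC DN RAR libraries. The controls lay close together and the PTEC DN RAR values on both sides of them. The log2 fold change was -0.04 (SE 0.11, edgeR adjusted p = 0.805, 95% interval -0.29 to 0.21), and its sign turned under pan-leukocyte scaling (0.17). The widely expressed paralog Rac1, which can also serve the oxidase, measured 505, 494 and 513 CPM in Cre- control and 444, 433 and 399 CPM in PTEC DN RAR libraries. For Rac1 the log2 fold change was -0.25 (SE 0.09, edgeR adjusted p = 0.0479), and -0.03 with an adjusted p of 0.785 under pan-leukocyte scaling. The log2 ratio of Rac2 to Rac1 was -0.17, -0.18 and -0.22 in Cre- control and 0.16, -0.06 and -0.07 in PTEC DN RAR libraries, higher in each PTEC DN RAR library by 0.20 in the mean (two-sided exact permutation p = 0.1, adjusted p = 0.214). Reads that aligned to both paralogs were left out of their counts, and exons of Rac1 share 51.4% of their bases with other genes.

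The cytosolic subunits can also be set against Rac2 and Cybb within a library. These ratios were chosen after the values were seen and are given without a test. The log2 ratio of Ncf1 to Rac2 was 0.34, 0.24 and 0.33 in Cre- control and -0.27, -0.17 and -0.06 in PTEC DN RAR libraries, without overlap. That of Ncf4 to Rac2 was -1.81, -1.95 and -1.79 against -2.23, -2.14 and -2.13, also without overlap. The ratios of Ncf1 and Ncf4 to Cybb were lower by 0.59 and 0.44 in the mean, with overlapping values. Per kilobase of exon, Ncf1 and Rac2 overlapped in Cre- control libraries (149 ± 7.25 and 142 ± 2.11 CPM per kilobase), and in PTEC DN RAR libraries Ncf1 lay below Rac2 (104 ± 6.85 and 139 ± 19.1, SD, n = 3 each). Ncf4 followed at 60.7 ± 3.92 and 47.3 ± 4.69 CPM per kilobase, and Nox4 was lowest of the 6 in both genotypes, at 2.96 ± 0.61 and 7.99 ± 2.56 (SD, n = 3 each). Exon length here is the union of all annotated exons, so genes with long minor transcripts read low on this scale.

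**Figure D2:**
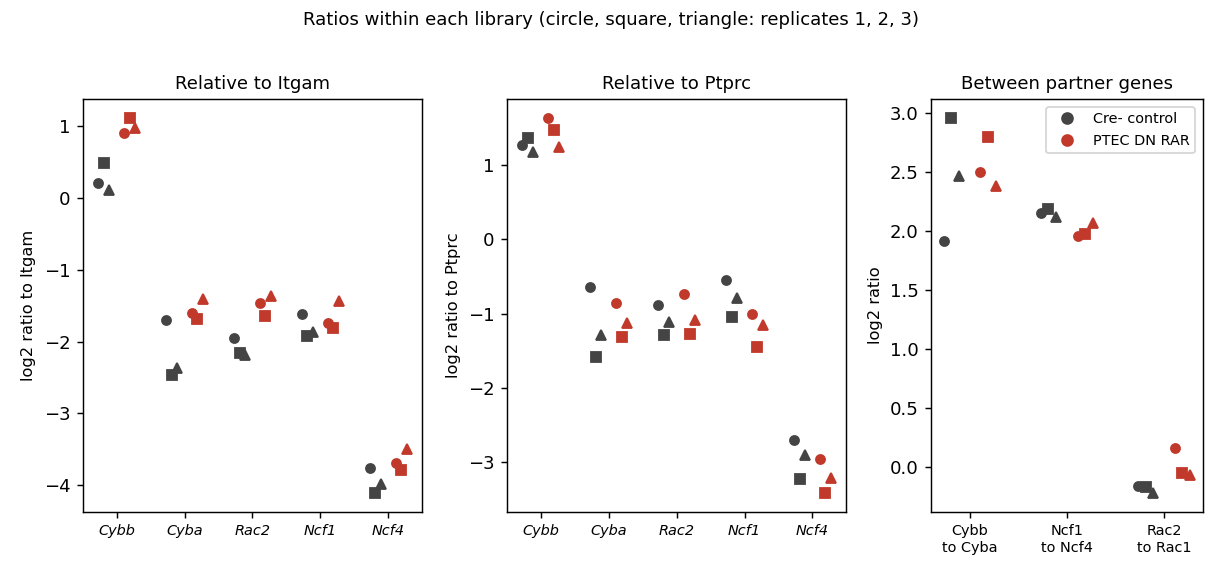
Log2 ratios of CPM within each library (log2 axes), of 5 subunit genes to Itgam and to Ptprc and of partner genes to each other, with 1 point per library (circle, square and triangle for replicates 1, 2 and 3, Cre- control in grey and PTEC DN RAR in red). Relative to Itgam the PTEC DN RAR points of Cybb, Cyba and Rac2 sit above all Cre- control points, and relative to Ptprc the genotypes overlap for every gene.

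CD11B is the antigen the cells were sorted on, and its gene Itgam fell itself, from 1737, 1959 and 1995 CPM in Cre- control to 1366, 1303 and 980 CPM in PTEC DN RAR libraries (log2 fold change -0.64, SE 0.14, edgeR adjusted p = 0.00818). Per unit of Itgam the membrane subunits and Rac2 were therefore higher in PTEC DN RAR libraries, by 0.73 for Cybb, 0.61 for Cyba and 0.61 for Rac2 on the log2 scale, each without overlap but short of the threshold (two-sided exact permutation p = 0.1, adjusted p = 0.214). For Ncf1 and Ncf4 the ratios to Itgam overlapped, with differences of 0.14 and 0.29 (two-sided exact permutation p = 0.5 and 0.2, adjusted p = 0.625 and 0.333). In GENCODE M21, 68.7% of the exon bases of Itgam are shared with another gene on the same strand. Ptprc, the pan-leukocyte antigen CD45, measured 832 to 1064 CPM in Cre- control and 805 to 1010 CPM in PTEC DN RAR libraries (log2 fold change -0.11, edgeR adjusted p = 0.534). Per unit of Ptprc all 5 subunit genes overlapped between genotypes, with differences of 0.18 for Cybb, 0.07 for Cyba, 0.06 for Rac2, -0.40 for Ncf1 and -0.25 for Ncf4 on the log2 scale (two-sided exact permutation p from 0.2 to 0.9).

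In bulk libraries fewer cells of a type and less RNA per cell cannot be told apart, and markers of myeloid cell types moved beside Ncf1 and Ncf4. Of 8 infiltrating monocyte markers 7 fell, and their summed level was 3161 to 3634 CPM in Cre- control and 1492 to 1572 CPM in PTEC DN RAR libraries. Of 10 neutrophil markers tested 5 fell. Sums over 12 markers were 471 to 849 CPM in Cre- control and 299 to 426 CPM in PTEC DN RAR libraries. The neutrophil granule genes Mpo and Elane were at most 0.0769 CPM in any library. Over all libraries S100a9 of the same list measured 84.2 to 360 CPM and Csf3r 135 to 187 CPM. Of 10 resident macrophage markers 1 fell and 2 rose, and under pan-leukocyte scaling 1 fell and 5 rose. In that scaling 6 of the monocyte and 4 of the neutrophil markers fell. Of the 26 pan-leukocyte genes 8 of 25 tested fell, with a median log2 fold change of -0.22. The part of these markers in the levels of Ncf1 and Ncf4 was not tested.

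**Figure D3:**
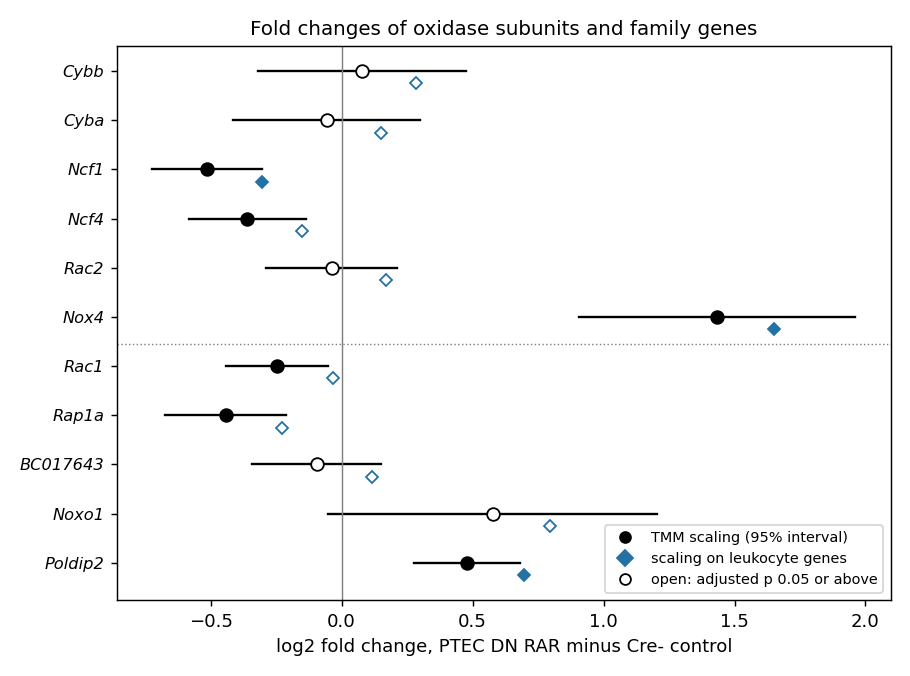
Log2 fold changes (PTEC DN RAR over Cre- control) of the 6 genes (above the dotted line) and of 5 family genes that passed the filter, as black circles with 95% intervals under TMM scaling and as blue diamonds under pan-leukocyte scaling. Filled symbols have an adjusted p under 0.05 by edgeR. Ncf1, Nox4 and Poldip2 are filled under both scalings.

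The rest of the oxidase family was read from a list of 13 genes, of which 6 passed the filter. Of these, 3 fell and 1 rose, beside 17.1% and 23.6% of all genes tested. Their median log2 fold change was -0.17. Rap1a, a small GTPase that copurifies with the cytochrome, fell by 0.44 on the log2 scale (edgeR adjusted p = 0.00922), a call lost under pan-leukocyte scaling (-0.23, adjusted p = 0.185). BC017643, the symbol in this table for Cybc1 (Eros), a chaperone needed for gp91phox protein, had a log2 fold change of -0.09 (SE 0.11, edgeR adjusted p = 0.513) and overlapped between genotypes. Under pan-leukocyte scaling 0 of these 6 genes were lower and 1 was higher, Poldip2, while at an unadjusted p under 0.05 by edgeR the counts were 0 and 2.

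Other NADPH oxidases were at the limit of detection in these cells. Nox1 had 0 to 8 reads per library, Nox3 0 to 3, and Duox1, Duox2, Noxa1, Duoxa1 and Duoxa2 at most 2 reads. Noxo1, the organizer of Nox1, measured 0.906 to 1.49 CPM in Cre- control and 1.44 to 1.89 CPM in PTEC DN RAR libraries, with a log2 fold change of 0.58 (SE 0.28, edgeR adjusted p = 0.126). Of its exon bases 70.4% are shared with Tbl3. Cybb and Nox4 were thus the catalytic oxidase genes detected above 8 reads.

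Nox4, the tubular form, measured 26.2, 19.4 and 29.6 CPM in Cre- control and 49.4, 91.6 and 62.2 CPM in PTEC DN RAR libraries. Every PTEC DN RAR library was above every control. The means were 25.1 ± 5.16 and 67.7 ± 21.7 CPM (SD, n = 3 each), 2.70-fold higher (log2 fold change 1.43, SE 0.23, edgeR adjusted p = 0.00216). Leaving out each library in turn gave values between 1.15 and 1.61, and pan-leukocyte scaling gave 1.65. Its fold change differed in direction from those of the cytosolic subunits, and the log2 ratio of Nox4 to Cybb was -6.26, -7.14 and -6.18 in Cre- control and -5.69, -4.94 and -4.95 in PTEC DN RAR libraries, without overlap (two-sided exact permutation p = 0.1, adjusted p = 0.214 over 15 ratios). Poldip2, a protein that binds p22phox and stimulates NOX4, measured 38.6 to 43.1 CPM in Cre- control and 52.1 to 59.7 CPM in PTEC DN RAR libraries (log2 fold change 0.48, SE 0.09, edgeR adjusted p = 0.00392).

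Proximal tubule transcripts moved beside Nox4. All 16 proximal tubule markers rose, with a median log2 fold change of 1.74, and their summed level was 1036 to 1243 CPM in Cre- control and 2562 to 3835 CPM in PTEC DN RAR libraries. No marker of the list was at 0. Lrp2, which encodes the endocytic receptor megalin, rose from 75.6 ± 20.2 to 240 ± 63.3 CPM (SD, n = 3 each), or by 1.67 on the log2 scale. Within libraries, the log2 level of Nox4 minus the mean of the 16 markers was -0.35, -0.47 and -0.34 in Cre- control and -0.78, -0.48 and -0.71 in PTEC DN RAR libraries. This ratio was lower by 0.27 in the mean of the PTEC DN RAR libraries (two-sided exact permutation p = 0.1, adjusted p = 0.214), and the gap between the groups was narrow at replicate 2 of each. The amount of tubular RNA and the level of Nox4 per tubular cell cannot be told apart here. Markers of endothelium (8 of 8, median log2 fold change 1.38) and of fibroblasts and pericytes (6 of 8, median 1.04) rose too. The part of these cells in the level of Nox4 was not tested.

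**Figure D4:**
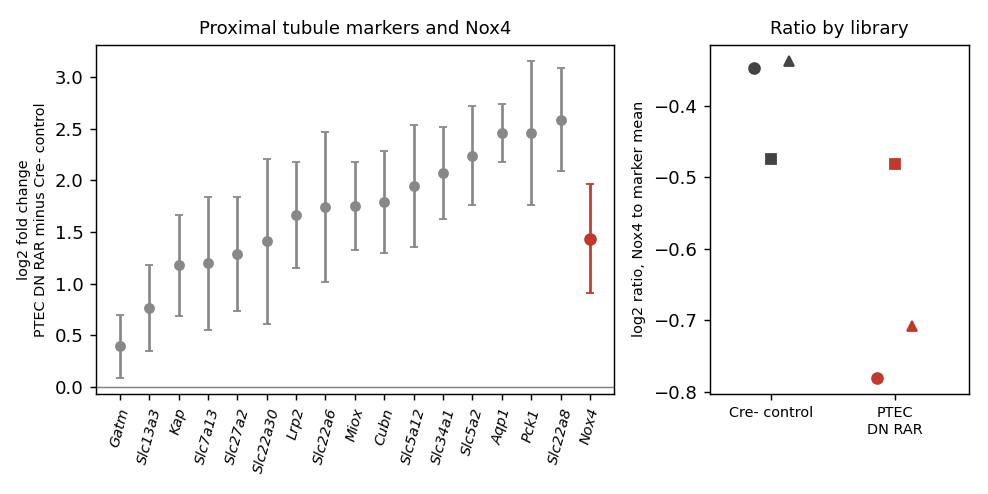
Left, log2 fold changes (PTEC DN RAR over Cre- control) with 95% intervals for 16 proximal tubule markers (grey) and Nox4 (red). Right, log2 ratio of Nox4 to the mean of these markers in each library, where all 3 PTEC DN RAR points lie below all 3 Cre- control points.

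The genes whose pattern over the 6 libraries was most like that of each member were read from 8985 genes with a mean of at least 10 CPM, by Pearson's r of log2 CPM. Points share genotype, depth and library, so r is a description. Among those nearest to Nox4 were Slc3a1 (r = 0.996) and Hgd (r = 0.996), a cystine transporter subunit of the proximal tubule and an enzyme of tyrosine breakdown, which had fold changes of 1.37 and 1.65 on the log2 scale. Ncf1 was most like Neurl3 (r = 0.999), Tceb3 (r = 0.999) and Rpl30 (r = 0.998), and 540 genes had an r over 0.95 with it. Ncf4 was most like Mlx (r = 0.999), A430005L14Rik (r = 0.997) and Mettl21a (r = 0.996). For Cyba the nearest genes included Fam58b (r = 0.995) and Polr2e (r = 0.981), and for Cybb Ralgps1 (r = 0.991), Cd244 (r = 0.985) and Mast2 (r = 0.984). Rac2 had 1 gene over 0.95, Sympk (r = 0.997), followed by Slc35e1 (r = 0.949) and Leprot (r = 0.946). No member was among the nearest genes of another.

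Genes that act on the activation of the oxidase, for or against it, were read from a list of 20. All 20 passed the filter, 6 fell, 1 rose and 13 did not pass the test. Among all genes tested 17.1% fell and 23.6% rose. The median log2 fold change of the list was -0.07. Besides Itgam, those that fell most were Arhgdib, a GDP dissociation inhibitor of leukocytes that keeps Rac proteins in the cytosol (-0.49, edgeR adjusted p = 0.00645), Pik3cg, a phosphoinositide kinase downstream of G protein-coupled receptors (-0.36, adjusted p = 0.0347), and Vav3, an exchange factor for Rac (-0.33, adjusted p = 0.0342). Hvcn1, the voltage-gated proton channel that balances the charge moved by the oxidase, rose from 43.2, 31.8 and 32.8 CPM to 65.5, 75.6 and 48.5 CPM (log2 fold change 0.81, SE 0.18, edgeR adjusted p = 0.00748). Its groups do not overlap, and under pan-leukocyte scaling the log2 fold change was 1.02. In the same libraries 2 of 5 B cell markers rose, and 5 of 5 under pan-leukocyte scaling. Their part in the level of Hvcn1 was not tested. Tyrobp, an adaptor of activating receptors and one of the most abundant genes of the list, had a log2 fold change of -0.26 (SE 0.15, edgeR adjusted p = 0.184). Pan-leukocyte scaling left 2 genes lower, Itgam (-0.44) and Arhgdib (-0.28, edgeR adjusted p = 0.0488), and 4 higher. The calls of Pik3cg (-0.15, adjusted p = 0.276) and Vav3 (-0.12, adjusted p = 0.492) were lost there.

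Genes that remove or use the products of the oxidase were read from a list of 15, of which 14 passed the filter. Of these, 3 fell and 3 rose, beside 17.1% and 23.6% of all genes tested. Their median log2 fold change was -0.05. The superoxide dismutases differed among themselves. Sod3, the extracellular form, rose from 21.1, 14.7 and 21.0 CPM to 51.7, 67.8 and 61.2 CPM (log2 fold change 1.67, SE 0.16, edgeR adjusted p = 0.000284), and the mitochondrial Sod2 by 0.63 (adjusted p = 0.00126). The 16 proximal tubule markers, with a median log2 fold change of 1.74, moved beside Sod3 in the same libraries, and their part in its level was not tested. The cytosolic Sod1 had a log2 fold change of -0.09 (SE 0.14, edgeR adjusted p = 0.623). Prdx1, a cytosolic peroxiredoxin, fell from 622, 560 and 523 CPM to 371, 319 and 396 CPM (-0.65, adjusted p = 0.00289), the thioredoxin reductase gene Txnrd1 by 0.55 (adjusted p = 0.00153) and the peroxiredoxin gene Prdx4 by 0.54 (adjusted p = 0.0113). Under pan-leukocyte scaling these values were -0.43 for Prdx1, -0.33 for Txnrd1 (edgeR adjusted p = 0.0364) and -0.33 for Prdx4, whose call was lost (adjusted p = 0.0787). Nos2, the inducible nitric oxide synthase, was low at 0.729 to 1.11 CPM in Cre- control and rose to between 1.51 and 2.90 CPM in PTEC DN RAR libraries (adjusted p = 0.0105). Gpx1, a glutathione peroxidase and the most abundant gene of the list, measured 833 to 988 CPM and 856 to 949 CPM (log2 fold change -0.01, SE 0.10, edgeR adjusted p = 0.932).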

How the data were processed

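RNA-Seq was done on CD11B+ kidney cells in 2 genotypes with 3 libraries each. The authors deposited raw counts of reads for each Ensembl gene in 1 table, and the submitters' processing notes name GRCm38, STAR 2.5.0a, HTSeq 0.6.1, edgeR and limma. The annotation release and the strand setting are not given in the sources used here. Reads aligned to more than 1 place (42.9% to 47.8% of alignments) are left out of the counts, which lowers genes with near-identical copies. Of 46612 gene lines, 9 were repeats of another line and were dropped, which left 46603, and 46005 identifiers were found in GENCODE M21. Summary lines entered no total. Libraries of a genotype differed by a chi-square per degree of freedom of at least 27.1, and each was counted once.

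The quasi-likelihood functions of edgeR (4.0.16, run in R 4.3.3), glmQLFit and glmQLFTest, were applied to the counts after filterByExpr and TMM. P values were adjusted over 15440 genes (Benjamini-Hochberg) with a threshold of 0.05. A standard error is the log2 fold change divided by the square root of F. Log2 levels and ratios use a prior count of 2, and ratios were compared by two-sided exact permutation tests over 6 libraries. The fit was tested on simulated data. Alternatives used DESeq2 1.42.0, limma-voom 3.58.1, other scalings and filters, the replicate number as a block, and each library left out. Figures were drawn with matplotlib 3.10.9. The members and gene lists were chosen with earlier results of these data known. Named are the members, the measured family genes, in 2 further lists the 4 largest called changes each way and the 2 most abundant genes, and the 3 genes most like each member. Some genes that this rule names are not reported here.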

Additional observations from a re-analysis of the deposited data

How the results depend on the processing

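Ncf1 and Nox4 kept their direction and their call under all 14 alternatives, with adjusted p values of at most 0.0272 and 0.00922. Under scaling on pan-leukocyte genes Cybb had a log2 fold change of 0.28 (SE 0.14, edgeR adjusted p = 0.153). Cyba and Rac2 then had 0.15 and 0.17, Ncf4 had -0.15 with its call lost, and 1 member fell. In the same scaling 761 of all 15440 genes fell and 5041 (32.6%) rose, and 0 of 6 genes of the other family fell. Of 20 genes that act on activation 2 fell and 4 rose, and of 14 genes of superoxide and peroxide handling 2 fell and 5 rose. That scaling shifts all genes together by construction. The shift was upward here, where the pan-leukocyte genes had a median log2 fold change of -0.22 under TMM. No other cause was tested. Leaving out each library in turn moved the log2 fold change of Cybb between -0.044 and 0.18, of Cyba between -0.22 and 0.13, of Rac2 between -0.15 and 0.00103 and of Ncf4 between -0.46 and -0.33. The number of members that fell then lay between 1 and 2, and of all genes between 1874 and 2824. The log2 ratio differences ranged from -0.15 to 0.37 for Cybb to Cyba, from -0.14 to 0.34 for Cyba to Ptprc and from -0.087 to 0.19 for Rac2 to Ptprc. They kept their sign but moved by over 1.5 times for Ncf1 to Itgam (0.023 to 0.23), Ncf4 to Ptprc (-0.39 to -0.13), Cybb to Ptprc (0.093 to 0.28) and Rac2 to Rac1 (0.13 to 0.24). DESeq2, limma-voom, the other filters, DESeq2's size factors and library size alone changed no call of a member. The labels give same-numbered libraries no more than a shared number. Their deviations correlated at -0.015, 0.21 and 0.029, and those of other pairs between -0.18 and 0.15. Both replicate 1 libraries had relatively more reads on short genes, and a batch shared by number was not tested. With the replicate block Ncf1 stood at -0.52, Ncf4 at -0.36 and Nox4 at 1.40, no call of a member changed, and 2606 genes fell and 3612 rose.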

Other observations

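Marker lists of other cells give the setting of the oxidase genes. Of the thick ascending limb markers 7 of 7 rose, of the distal convoluted tubule 6 of 6, of endothelium 8 of 8, of fibroblasts and pericytes 6 of 8 and of the collecting duct 3 of 6. Of 6 podocyte markers 4 rose and 1 fell. Among lymphoid markers 2 of 4 tested for T cells and 2 of 5 for B cells rose (5 of 5 for B cells under pan-leukocyte scaling), and 0 of 6 for NK cells passed. Of 8 dendritic cell markers 2 rose and 1 fell. Under pan-leukocyte scaling the falls in the podocyte and dendritic cell lists were lost, and 7 of 8 fibroblast and pericyte markers rose. Of 5 erythroid and platelet markers tested 2 fell, the platelet chemokine genes Pf4 (means of 332 and 38.7 CPM in Cre- control and PTEC DN RAR libraries) and Ppbp (27.0 and 1.32 CPM), and the other 3 did not pass the test.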
